A study of Mus musculus with 40 samples.

Results

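The genes described here are markers of immature neurons and of neurogenesis: Sox4, Sox11, Dcx, Tubb2b, Dpysl3, Dpysl5, Marcksl1, Igfbpl1, Draxin and Top2a. They were found as the probes whose gene name on the array equals 1 of these 10 symbols. Of the 10, 9 were found by name, and Draxin was found only through its RefSeq transcript, which the array lists under the older name 2610109H07Rik. Together they have 19 of the 55589 probes analysed, 17 of them by name. RNA from the mouse cerebral cortex and cerebellum was hybridized to 40 Agilent arrays, 4 mice in each of 10 groups, all C57Bl/6. In each region, wild-type mice of 2 months (young) and of 29 months (aged) were fed a normal diet that held 36 mg of α-tocopherol per kg. The next group was aged wild-type mice on the vitamin E-deficient diet. The remaining groups were aged Ttpa-/- mice, which lack the α-tocopherol transfer protein throughout the body, on the deficient diet or on a supplemented diet with 600 mg of α-tocopherol per kg. None of the groups analysed here holds young Ttpa-/- mice or Ttpa-/- mice on the normal diet, so every comparison of Ttpa-/- with normally fed wild-type mice changed genotype and diet together.

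New neurons in the adult rodent brain arise mainly from stem cells beside the lateral ventricles and in the dentate gyrus, and the adult cerebral cortex and cerebellum hold few of them. A dividing progenitor expresses Top2a, a DNA topoisomerase of proliferating cells. Its daughters switch on the SoxC transcription factors Sox4 and Sox11, which activate neuronal genes, and then cytoskeletal proteins that shape a migrating cell and its growing axon. These are doublecortin (Dcx) and the β-tubulin Tubb2b, which make up and bind microtubules, the collapsin response mediators Dpysl3 and Dpysl5, which pass on guidance signals, and Marcksl1, a membrane protein that binds actin. Igfbpl1 is a secreted relative of the insulin-like growth factor binding proteins, and Draxin is a secreted axon guidance protein. Several of these genes are also expressed by mature neurons or glia, and in RNA from whole tissue fewer cells of a type and less RNA per cell cannot be told apart.

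Levels are given as the log2 of a probe's signal relative to its array's 75th percentile signal, so that 0 is the 75th percentile and 1 more is a doubling. A probe's brightness also depends on its sequence, and levels were compared between groups, not between probes. Where a gene has several probes, the brightest one stands for it. A member was called changed when limma's adjusted p was under 0.05 and the fold change over 1.5. Of the 19 probes, 11 were well above background on all 40 arrays, from 7 members: Sox4 with 3 probes, Sox11 and Tubb2b with 2 each, and Dcx, Dpysl3, Dpysl5 and Marcksl1 with 1 each. Igfbpl1 was above background on 22 arrays, Top2a on 4 and Draxin on 0. The brightest probes lie, by the mm9 positions of the files, in the transcripts of Dcx at chrX:140290854-140290913, Sox4 at chr13:29040826-29040885, Sox11 at chr12:28020087-28020146, Tubb2b at chr13:34219092-34219151, Dpysl3 at chr18:43483948-43484007, Dpysl5 at chr5:31101367-31101426, Marcksl1 at chr4:129192947-129193006 and Igfbpl1 at chr4:45822379-45822438.

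Arrays of a group correlated at 0.983 to 0.998, and the share of probes well above background was 51.4% to 61.4%. The better of the Ttpa probes was above background on 4 of 4 arrays of each wild-type cerebellum group, on 0 of 4 of Ttpa-/- mice on the deficient diet and on 1 of 4 on the supplemented diet. In the cortex it was above background on at most 1 of 4 arrays of any group and does not check the labels there. The summed signal of 8 cerebellum markers, in units of the 75th percentile signal, was 486 to 684 on cerebellum arrays and 5.28 to 7.52 on cortex arrays. The arrays lay on 5 slides of 8, 2 whole groups to a slide. Ageing in the cortex, the deficient diet in wild-type cerebellum and the supplemented diet in Ttpa-/- cerebellum were compared within 1 slide, and in every other comparison slide and group cannot be told apart. In the young wild-type cerebellum the summed signal of 8 choroid plexus markers, a tissue of the neighbouring ventricle, was 253 on array 1 and 8.94 to 33.3 on the others. The same signal was 5.88 to 9.09 on the aged cerebellum arrays and 39.8 to 196 on most cortex arrays, but 2.96 and 4.98 on array 4 of young and of aged wild-type cortex and 12.7 on array 1 of Ttpa-/- cortex on the deficient diet. These 4 arrays lay over 2 (log2) from their group's median level of the markers. Results that use them are also given without them where that changes a call. They are also given so for Sox4 with ageing and for Marcksl1 in the Ttpa-/- cortex on the deficient diet. The differences between the regions at 1 age are not given without all of these arrays.

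Sox4, Sox11, Dcx and Marcksl1, which were higher in the cortex than in the cerebellum at 2 months, are shown here by the 250 bases before their RefSeq start sites, read 5′ to 3′ on the gene's strand (GRCm38.p6). Dpysl3, which was also higher in the young cortex, was left out of the promoter search. The capitals mark a CCAAT box on either strand (CCAAT or ATTGG), a short promoter motif bound by the factor NF-Y. Sox4 (chr13:28953700-28953949) holds 4, which begin 171, 104, 47 and 8 bases before the start. Sox11 (chr12:27342719-27342968) holds 1 at 60 bases, Marcksl1 (chr4:129513331-129513580) 1 at 28 bases and Dcx (chrX:143933220-143933469) 1 at 196 bases.
Sox4: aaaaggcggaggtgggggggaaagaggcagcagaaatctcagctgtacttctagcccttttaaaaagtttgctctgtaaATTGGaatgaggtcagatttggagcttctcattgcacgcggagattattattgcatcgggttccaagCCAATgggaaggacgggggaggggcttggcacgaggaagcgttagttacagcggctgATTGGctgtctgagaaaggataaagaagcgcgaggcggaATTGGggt
Sox11: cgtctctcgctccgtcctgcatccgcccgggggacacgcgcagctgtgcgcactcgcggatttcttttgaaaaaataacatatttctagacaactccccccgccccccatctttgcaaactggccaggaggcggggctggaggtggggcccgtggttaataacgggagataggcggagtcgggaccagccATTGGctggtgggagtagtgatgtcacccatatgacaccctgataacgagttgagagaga
Marcksl1: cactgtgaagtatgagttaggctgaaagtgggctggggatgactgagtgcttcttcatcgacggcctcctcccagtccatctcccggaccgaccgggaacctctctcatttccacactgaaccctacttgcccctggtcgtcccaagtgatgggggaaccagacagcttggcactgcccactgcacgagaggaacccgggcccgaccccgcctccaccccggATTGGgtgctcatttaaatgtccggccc
Dcx: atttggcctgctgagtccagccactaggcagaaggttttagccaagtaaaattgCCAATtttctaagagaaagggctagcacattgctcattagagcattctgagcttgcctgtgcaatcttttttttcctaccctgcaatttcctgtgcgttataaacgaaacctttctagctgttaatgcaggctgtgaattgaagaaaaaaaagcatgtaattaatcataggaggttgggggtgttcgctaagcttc
Of the 7 members with a promoter sequence used here, Top2a held 6 CCAAT boxes and Dpysl5 and Draxin 0, and 33.8% of 32851 RefSeq promoters of this length held at least 1. Sox4, Sox11 and Draxin also held 1 E-box each of the form CAGCTG, found in 13% of promoters. These begin at 211 bases (Sox4), 210 bases (Sox11) and 132 bases (Draxin). GC boxes (GGGCGG or CCGCCC, in 32.7% of promoters) were in Sox11, Dpysl5, Draxin and Top2a, and the letters ACAAAG or CTTTGT (in 16.5%), which Sox proteins can bind, were in Dpysl5 and Draxin. These matches describe the letters of the window, and factor binding was not measured.

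**Figure D1:**
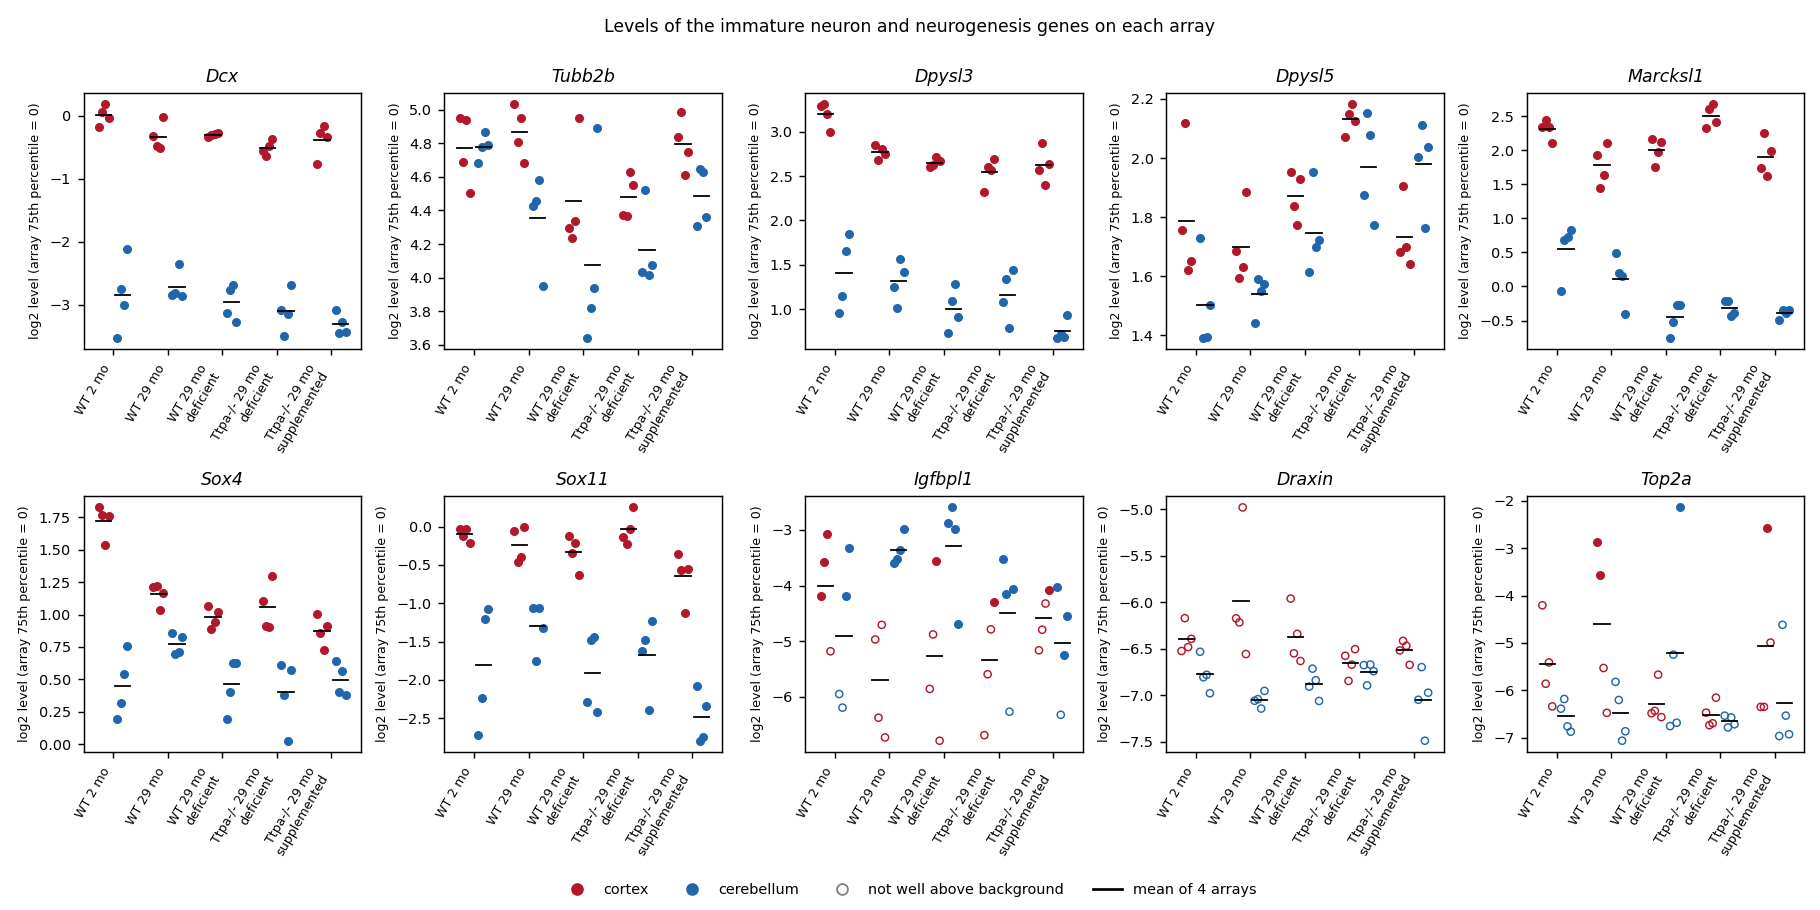
Log2 level relative to the array's 75th percentile of the brightest probe of each of the 10 members (one panel each), for the 5 groups of the cortex (red) and the cerebellum (blue). Each point is 1 array, hollow where it was not well above background, and black lines are means of 4. Dcx lay between -0.77 and 0.18 on the cortex arrays and between -3.52 and -2.11 on the cerebellum arrays, and Draxin was hollow throughout.

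Most calls among these genes were between the regions. In young wild-type mice, 5 of the 7 tested members were higher in the cortex and 0 lower, against 38.4% of all probes called in either direction and 19.1% called higher. The 5 were Dcx, Dpysl3, Marcksl1, Sox11 and Sox4. For this comparison the marker genes of the 2 tissues set the scale: all 7 cortical neuron markers were higher in the cortex, with a median log2 difference of 6.42, and 7 of 8 cerebellum markers were lower, with a median of -7.48.

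Dcx, which stabilises microtubules in migrating neuroblasts, had levels of -0.17, 0.06, 0.18 and -0.04 on the young cortex arrays and -3.52, -2.75, -3.01 and -2.11 on the young cerebellum arrays. The groups did not overlap, and the difference was 2.86 on the log2 scale (7.24-fold, SE 0.20, limma adjusted p = 2.89e-14). At 29 months it was 2.38 (SE 0.20, adjusted p = 3.25e-12). A second Dcx probe, for another part of the transcript, was above background on 12 of 40 arrays, all of them cortex. On the young arrays it gave a cortex level at least 2.64-fold higher. The remaining Dcx probe was above background on 0 arrays.

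Among the other cytoskeletal members, Dpysl3 was higher in the cortex by 1.80 at 2 months (SE 0.15, adjusted p = 6.89e-12) and by 1.46 at 29 months (adjusted p = 1.12e-09). Marcksl1 was higher by 1.76 (SE 0.17, adjusted p = 1.87e-10) and by 1.67 (adjusted p = 8.40e-10). Tubb2b and Dpysl5 lay close together in the regions. Tubb2b differed by -0.01 on the log2 scale at 2 months, and by 0.52 at 29 months, under the fold threshold (adjusted p = 0.0191). Dpysl5 differed by 0.28 at 2 months (adjusted p = 0.0177) and by 0.16 at 29 months (adjusted p = 0.192), both under the fold threshold. The mean of its 2 probes gave -0.10 at 2 months, in the other direction.

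Of the SoxC factors, Sox11 was higher in the young cortex by 1.71 (SE 0.28, adjusted p = 3.67e-06). Its cortex levels were -0.04, -0.12, -0.03 and -0.22, and its cerebellum levels -2.72, -2.23, -1.20 and -1.07. The cerebellum arrays thus fell into a lower and a higher pair, which the second Sox11 probe also showed (-3.06 and -3.54 against -1.87 and -1.54). At 29 months the difference was 1.06 (adjusted p = 0.00171). Sox4 was higher in the young cortex by 1.27 (SE 0.12, adjusted p = 6.88e-11) and in the aged cortex by 0.39 (adjusted p = 0.00721), the latter under the fold threshold on its brightest probe and past it on its other probes (0.62 and 0.64).

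Igfbpl1 alone ran the other way at 29 months. At 29 months its levels were -3.59, -3.52, -3.36 and -2.98 in the wild-type cerebellum, all above background, and -4.97, -6.37, -4.71 and -6.73 in the cortex, none above background. The fit gave -2.33 (cortex minus cerebellum, adjusted p = 0.0053), and as a bound the cerebellum was at least 1.93-fold higher. Igfbpl1 entered this test only through the cerebellum group, where it was high, so the p value adds no support. With normexp background correction the difference was -0.35 (adjusted p = 0.132). At 2 months Igfbpl1 was not tested, with 3 of 4 arrays above background in the cortex and 2 of 4 in the cerebellum. Its mean was then higher in the cortex (-4.01) than in the cerebellum (-4.91). At 29 months 4 members were higher and 1, Igfbpl1, lower in the cortex of 8 tested, against 33.6% of probes called, 15.8% higher and 17.8% lower.

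**Figure D2:**
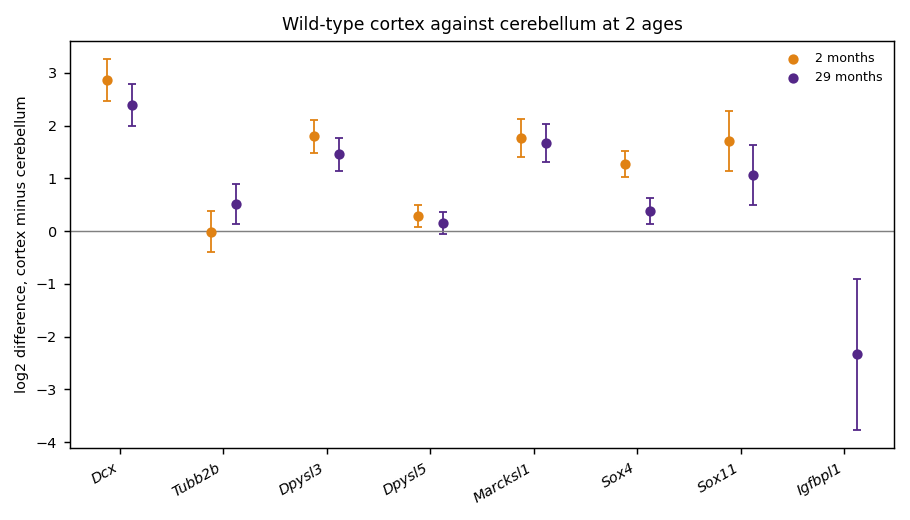
Log2 difference between the cortex and the cerebellum of normally fed wild-type mice at 2 months (orange) and 29 months (purple), brightest probe of each tested member, with 95% intervals from limma and n = 4 arrays per group. Dcx, Dpysl3, Marcksl1 and Sox11 lie above 1 at both ages, Sox4 falls from 1.27 to 0.39, and Igfbpl1, tested at 29 months only, lies at -2.33.

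With ageing in the cortex, Sox4 was lower on all 3 of its probes, and no other member passed limma's adjusted p of 0.05. By the brightest probes, 0 of 7 tested members were called, against 2.09% of probes. At an unadjusted p under 0.05, 3 of them were lower, Sox4, Marcksl1 and Dpysl3. The share of all probes at this unadjusted cutoff was not counted, here or in later comparisons. Counts of members at it therefore have no scale beside them. The groups of young and aged arrays did not overlap for the same 3 members, as for 14% of probes. The median change was -0.24 over the 10 members and -0.34 over the 7 tested, beside -0.03 for all probes tested.

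Sox4 levels in the cortex were 1.83, 1.77, 1.53 and 1.76 at 2 months and 1.21, 1.22, 1.03 and 1.16 at 29 months. Every aged array was below every young one. The change was -0.57 on the log2 scale (95% interval -0.81 to -0.32, 1.48-fold, SE 0.12, adjusted p = 0.00376), just short of the fold threshold, and 4.14% of probes had an adjusted p under 0.05 at any fold. The second probe fell by 0.64 (SE 0.16, adjusted p = 0.013), from 0.16, 0.24, 0.05 and 0.06 to -0.51, -0.36, -0.46 and -0.71. The probe in the coding sequence fell by 0.77 (SE 0.21, adjusted p = 0.0271), from -1.60, -1.75, -1.75 and -1.85 to -2.35, -2.46, -2.62 and -2.61. Both were called. The 3 probes do not overlap. The second lies at chr13:29042856-29042915 (mm9), and the coding-sequence probe, shown because it reads the part of the gene that encodes the DNA-binding HMG box, at chr13:29044482-29044541, with no letters set in capitals.
Sox4 coding probe: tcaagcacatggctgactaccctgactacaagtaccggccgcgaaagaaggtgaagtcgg

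Ageing in the cortex was compared within 1 slide. In a fit of those arrays alone the adjusted p values of the 3 Sox4 probes were 0.0344, 0.029 and 0.0166. With median scaling the changes were -0.61, -0.68 and -0.81, with adjusted p of 0.102, 0.052 and 0.0915, and with normexp the second and coding-sequence probes changed by less than 1.5-fold (-0.53 and -0.52), so that both calls were lost under either setting. The call of the second probe was lost without aged cortex array 4, and that of the coding-sequence probe without any of 6 of the 8 arrays. Without the arrays that stood apart in choroid plexus signal, array 4 of both groups among them, the changes were -0.55 (adjusted p = 0.0206), -0.59 (adjusted p = 0.0624, call lost) and -0.78 (adjusted p = 0.0434). The summed signals of 5 lists of other cells or tissues did not overlap between young and aged arrays. The summed signal of 7 striatum markers was 30 to 44.6 on the young and 18.4 to 21.6 on the aged arrays, with all 7 above background except on 1 aged array with 6. That of 9 oligodendrocyte precursor markers, all above background, was 29.5 to 35.1 on the young and 22.8 to 25.3 on the aged arrays. In the other direction, that of 6 astrocyte markers went from 43.3 to 51.1 up to 52.5 to 62.1, with 1 of the 6 called, and that of 4 blood markers from 0.469 to 2.16 up to 5.21 to 12.3, with 1 of 3 tested called. The 8 cerebellum markers went from 5.28 to 5.88 up to 6.03 to 7.01. The part of these lists in the Sox4 result was not tested.

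On the brightest probe, Sox4 levels stayed in the lower range in every aged cortex group. The means were 0.98 ± 0.08 in wild-type mice that received the deficient diet. They were 1.05 ± 0.19 and 0.88 ± 0.11 (SD, n = 4) in Ttpa-/- mice on the deficient and the supplemented diet. Normally fed aged wild-type mice had a mean of 1.16 ± 0.09. None of the 5 comparisons made among these 4 groups called the brightest Sox4 probe. On the second and coding-sequence probes, Ttpa-/- mice on the deficient diet had means of -0.28 ± 0.27 and -2.27 ± 0.44. Normally fed wild-type means were -0.51 and -2.51 in aged and 0.13 and -1.74 in young mice. The Ttpa-/- arrays thus lay nearer the young ones there, though below all of them. The remaining aged groups were below normally fed aged mice on both probes.

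In the cerebellum, Sox4 was not called. Its levels were 0.19, 0.31, 0.54 and 0.76 at 2 months and 0.86, 0.70, 0.71 and 0.82 at 29 months, and the ranges overlapped. The change was 0.32 (adjusted p = 0.0855). The test of the difference between the regions gave -0.89 for the cortex minus the cerebellum (SE 0.17, adjusted p = 0.00281), and 1 of 8 tested members, against 1.46% of probes, was called for this difference. The second probe gave -0.83 (adjusted p = 0.042) and the coding-sequence probe -0.99 (adjusted p = 0.083). The second probe's call was lost without any of 12 of the 16 arrays (adjusted p up to 0.101) and in 3 of 8 other settings (adjusted p up to 0.23). Without the young cerebellum array 1, which had the choroid plexus signal, the difference of the brightest probe was -0.80 (adjusted p = 0.01), and without all 3 arrays of these groups that stood apart in that signal it was -0.79 (adjusted p = 0.0353). With median scaling it was -0.87 with an adjusted p of 0.162. The 4 groups lie on 3 slides.

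Of the other members in the ageing cortex, Marcksl1 levels were 2.34, 2.45, 2.34 and 2.10 in young mice and 1.92, 1.44, 1.64 and 2.10 in aged mice. The lowest young and the highest aged array were nearly equal, and the change of -0.53 (SE 0.17, adjusted p = 0.0858) was not called. Those are array 4 of each group, which were low in choroid plexus signal, and without the arrays that stood apart in it Marcksl1 changed by -0.70 (adjusted p = 0.0143) and was called. Dpysl3 levels went from 3.29, 3.31, 3.20 and 3.00 to 2.85, 2.68, 2.80 and 2.75, a change of -0.43 (SE 0.15, adjusted p = 0.126), with no overlap. Dcx changed by -0.34 (95% interval -0.74 to 0.05, adjusted p = 0.437), and its aged array 4, at -0.03, lay within the young range. Sox11 changed by -0.13, Tubb2b by 0.10 and Dpysl5 by -0.09, with intervals that all include 0. Igfbpl1 was above background on 3 of 4 young and 0 of 4 aged arrays, and was not tested.

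With ageing in the cerebellum, 0 of 8 tested members were called, against 5.03% of probes. The median change was 0.05 over the 10 members and 0.08 over the 8 tested, beside -0.01 for all probes tested. At an unadjusted p under 0.05, Sox4 (0.32) and Igfbpl1 (1.55, adjusted p = 0.172) were higher and Marcksl1 (-0.44, adjusted p = 0.111) and Tubb2b (-0.43, adjusted p = 0.153) lower. Tubb2b, at 4.69, 4.78, 4.87 and 4.79 in young and 4.42, 4.46, 4.58 and 3.95 in aged mice, was the only member whose groups did not overlap, as they did not for 19.1% of probes. Without the young array 1, Marcksl1 changed by -0.64 and was called. Igfbpl1 was at -5.95, -6.19, -4.18 and -3.33 on the young arrays, of which arrays 1 and 2 were not above background, and at -3.59 to -2.98 on the aged arrays. The low young arrays are those of the lower Sox11 pair. The difference of the Igfbpl1 change between the regions was -3.24 (adjusted p = 0.0977). Igfbpl1 entered both of these tests only through the aged cerebellum group, where it was high. Its p values therefore add no support.

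**Figure D3:**
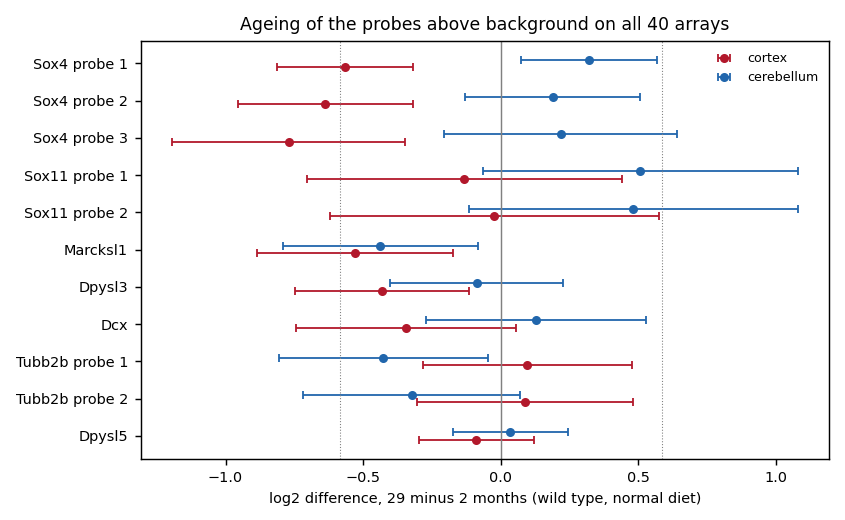
Log2 change from 2 to 29 months in normally fed wild-type mice, with 95% intervals from limma (n = 4 arrays per group), in the cortex (red) and the cerebellum (blue), for the 11 member probes above background on all 40 arrays. Dotted lines mark a 1.5-fold change. The 3 Sox4 probes lie between -0.77 and -0.57 in the cortex and between 0.19 and 0.32 in the cerebellum.

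Loss of the transfer protein together with the deficient diet was examined in aged Ttpa-/- mice, compared with normally fed aged wild-type mice. In the cortex Marcksl1 rose, and it was the only member called of 7 tested, against 4.75% of probes. Its levels were 1.92, 1.44, 1.64 and 2.10 in wild-type and 2.33, 2.61, 2.67 and 2.41 in Ttpa-/- mice. Every Ttpa-/- array was above every wild-type array. The change was 0.73 (1.66-fold, 95% interval 0.37 to 1.09, SE 0.17, adjusted p = 0.00398). It passed both thresholds when any 1 of the 8 arrays was left out, with changes of 0.62 to 0.84, and was 0.89 (adjusted p = 0.00201) without the wild-type array 4 and the Ttpa-/- array 1 that were low in choroid plexus signal. The striatum markers moved here too, with a summed signal of 18.4 to 21.6 in wild-type and 27.1 to 33.0 in Ttpa-/- mice. In wild-type mice on the deficient diet that signal was 28.7 to 59.6, with Marcksl1 0.23 above its level on the normal diet and not called. The summed signal of the astrocyte markers was 52.5 to 62.1 in normally fed wild-type and 42.5 to 51.4 in Ttpa-/- mice, with 0 of 6 called, and that of 6 dentate gyrus granule cell markers was 1.62 to 2.11 and 1.11 to 1.55, with 2 of 4 tested called lower. The part of these markers in the Marcksl1 result was not tested, and the slides differ.

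The mean of Marcksl1 in these Ttpa-/- mice was 2.51 ± 0.16, beside 2.31 ± 0.14 in young wild-type mice (SD, n = 4), and the difference between those 2 groups was not tested. On the deficient diet, the Ttpa-/- mice were above the wild-type mice by 0.50 (SE 0.17, adjusted p = 0.0534), with arrays of 2.16, 1.76, 1.98 and 2.12 in the wild type. The groups did not overlap, and the difference was not called. On the supplemented diet, Marcksl1 in the Ttpa-/- cortex was at 1.75, 2.25, 1.62 and 1.99. It was lower than on the deficient diet by 0.61 (log2 change -0.61, SE 0.17, adjusted p = 0.0191) and differed by 0.12 from normally fed wild-type mice. That call, 1 of 7 tested members against 3.31% of probes, was lost without any of 4 of the 8 arrays (adjusted p up to 0.0799), and in a fit of the compared arrays alone. These comparisons share the arrays of the Ttpa-/- mice on the deficient diet.

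In the cerebellum Marcksl1 was not called. Its levels were 0.49, 0.19, 0.16 and -0.40 in aged wild-type mice and -0.21, -0.21, -0.43 and -0.40 in Ttpa-/- mice on the deficient diet, a change of -0.42 (adjusted p = 0.106). The difference between the regions was 1.15 (cortex minus cerebellum, SE 0.25, adjusted p = 0.00571), called for 1 of 8 tested members against 3.38% of probes. It ranged from 1.03 to 1.32 when each of the 16 arrays was left out. With median scaling it was 1.23, with an adjusted p of 0.0579. The 4 groups lie on 4 slides.

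Dpysl5, which acts in axon guidance and dendrite growth, was higher in Ttpa-/- mice on the deficient diet in both regions, by less than 1.5-fold. In the cortex it was at 1.68, 1.59, 1.63 and 1.88 in wild-type and 2.07, 2.15, 2.18 and 2.13 in Ttpa-/- mice, without overlap. The difference was 0.43 (1.35-fold, SE 0.10, adjusted p = 0.00375), an adjusted p that 19% of probes passed at any fold change. In the cerebellum it was at 1.44, 1.59, 1.55 and 1.57 in wild-type and 1.87, 2.15, 2.08 and 1.77 in Ttpa-/- mice, again without overlap and with a difference of 0.43 (1.35-fold, adjusted p = 0.00569). The share of all probes without overlap is not given for this comparison in the cerebellum. On the supplemented diet Dpysl5 was lower than on the deficient diet in the Ttpa-/- cortex (log2 change -0.40, adjusted p = 0.00964) and by 0.01 higher in the cerebellum. With the mean of its 2 probes, the dimmer of which was above background on 21 arrays, the difference was 0.09 (adjusted p = 0.773) in the cortex and 0.33 (adjusted p = 0.197) in the cerebellum. In the cerebellum the adjusted p was also 0.0885 with median scaling and 0.0604 in a fit of the compared arrays alone.

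In the cerebellum of Ttpa-/- mice on the deficient diet, 0 of 8 tested members were called, against 4.46% of probes. Apart from Dpysl5, Sox4 passed the adjusted p under the fold threshold (-0.37, SE 0.12, adjusted p = 0.0364), as 13.2% of probes did at any fold change. Its coding probe fell by 0.69 (adjusted p = 0.0268) and passed both, from -3.31, -3.15, -3.19 and -2.94 to -3.33, -4.12, -4.03 and -3.86, with a call that was lost without any of 6 of the 8 arrays and in 4 of 10 other settings, with -0.30 under normexp and an adjusted p up to 0.108. The other members tested changed by -0.38 (Dcx), -0.38 (Sox11), -0.19 (Tubb2b), -0.15 (Dpysl3) and -1.14 (Igfbpl1) and passed neither. Marcksl1 also had an unadjusted p under 0.05. In the cortex, Tubb2b was lower by 0.39 in Ttpa-/- mice (log2 change -0.39, adjusted p = 0.144) without overlap, so that 3 members had separate groups, as 23.4% of probes did.

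In the cerebellum of Ttpa-/- mice on the supplemented diet, Sox11 and Dcx fell relative to normally fed aged wild-type mice. Of 8 tested members 2 were called, both lower, against 4.91% of probes called in either direction and 1.57% called lower. Sox11 was at -1.06, -1.75, -1.07 and -1.32 in wild-type and -2.08, -2.79, -2.74 and -2.34 in Ttpa-/- mice. The groups did not overlap, and Sox11 fell by 1.19 (2.28-fold, SE 0.28, adjusted p = 0.00466). It kept both thresholds when any 1 of the 8 arrays was left out, with changes of -1.34 to -1.09. The second Sox11 probe, at -1.78, -2.48, -1.91 and -1.91 against -2.51, -3.08, -3.11 and -2.63, gave -0.81 and missed the threshold (adjusted p = 0.0581).

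Dcx was at -2.85, -2.81, -2.35 and -2.87 in the wild-type cerebellum and -3.09, -3.45, -3.27 and -3.43 in Ttpa-/- mice on the supplemented diet. It fell by 0.59 (1.50-fold, SE 0.20, adjusted p = 0.0391), at the edge of the fold threshold, and the call was lost without any of 6 of the 8 arrays (adjusted p up to 0.152). Dpysl3, at 1.25, 1.02, 1.57 and 1.42 against 0.68, 0.72, 0.68 and 0.93, differed by -0.56 under the fold threshold (adjusted p = 0.0135). Marcksl1 differed by -0.50 (adjusted p = 0.0491), also under the fold threshold, and Dpysl5 by 0.44 (adjusted p = 0.00436), so that 5 members had an adjusted p under 0.05 at any fold, against 14.7% of probes. With the mean of its 2 probes Dpysl5 differed by 0.09 (adjusted p = 0.775), and with median scaling none of Dpysl3, Marcksl1 and Dpysl5 passed (adjusted p = 0.0757, 0.182 and 0.0899). In all, 6 of the 8 tested members had groups that did not overlap, as did 21.3% of probes. Igfbpl1, among the 6, entered the test only through the wild-type group, where it was high. Its lack of overlap therefore adds no support. The median change of the 10 members, which include those not tested, was -0.39 against -0.01 for all probes tested. The summed signal of 9 oligodendrocyte precursor markers, 8 or 9 of them above background, was 9.58 to 12.2 in wild-type and 8.32 to 9.16 in Ttpa-/- mice. Its part in these results was not tested, and the groups lie on 2 slides.

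Between the 2 diets within the Ttpa-/- cerebellum, which share a slide, 0 of 7 tested members were called, against 0.343% of probes. Sox11 had the largest change (log2 change -0.81, adjusted p = 0.196), and array 3 of the deficient group, at -2.40, lay within the range of the supplemented group. At an unadjusted p under 0.05 Sox11 and Dpysl3 (-0.41) were lower. In the cortex of Ttpa-/- mice on the supplemented diet, 0 of 7 members differed by a call from wild-type mice, against 0.092% of probes, and Sox4 (-0.28) had an unadjusted p under 0.05. Sox11 was at -0.35, -0.57, -1.12 and -0.56 there and at -0.13, -0.22, -0.04 and 0.25 on the deficient diet. The groups did not overlap, and the change of -0.62 did not pass (adjusted p = 0.143).

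The deficient diet alone gave no call of a member in wild-type mice. In the cortex 0 of 7 were called (0.223% of probes) and in the cerebellum 0 of 8 (1.28% of probes). At an unadjusted p under 0.05 the cortex had 1 member, Tubb2b (-0.41), at 4.30, 4.23, 4.33 and 4.95 against a mean of 4.87 ± 0.15 on the normal diet. In the cerebellum, compared within 1 slide, Marcksl1 was at -0.75, -0.53, -0.27 and -0.27 against 0.49, 0.19, 0.16 and -0.40, a change of -0.56 (adjusted p = 0.0557). It was 1 of 3 at an unadjusted p under 0.05, with Sox4 and Sox11 (-0.61). Sox4 changed by -0.31 (adjusted p = 0.128) and Dpysl5 by 0.21 (adjusted p = 0.244), both without overlap. The share of all probes without overlap is not given for this comparison. Ttpa-/- and wild-type mice that both ate the deficient diet differed in 0 of 7 tested members in the cortex (3.07% of probes) and in 0 of 8 in the cerebellum (4.94%), with Marcksl1 and Dpysl5 (0.26) at an unadjusted p under 0.05 in the cortex and Dpysl5 (0.22) in the cerebellum. The test named in the study's methods, adjusted by Benjamini-Hochberg, also called 0 members in each comparison above where limma called 0. These groups share arrays with the comparisons above.

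**Figure D4:**
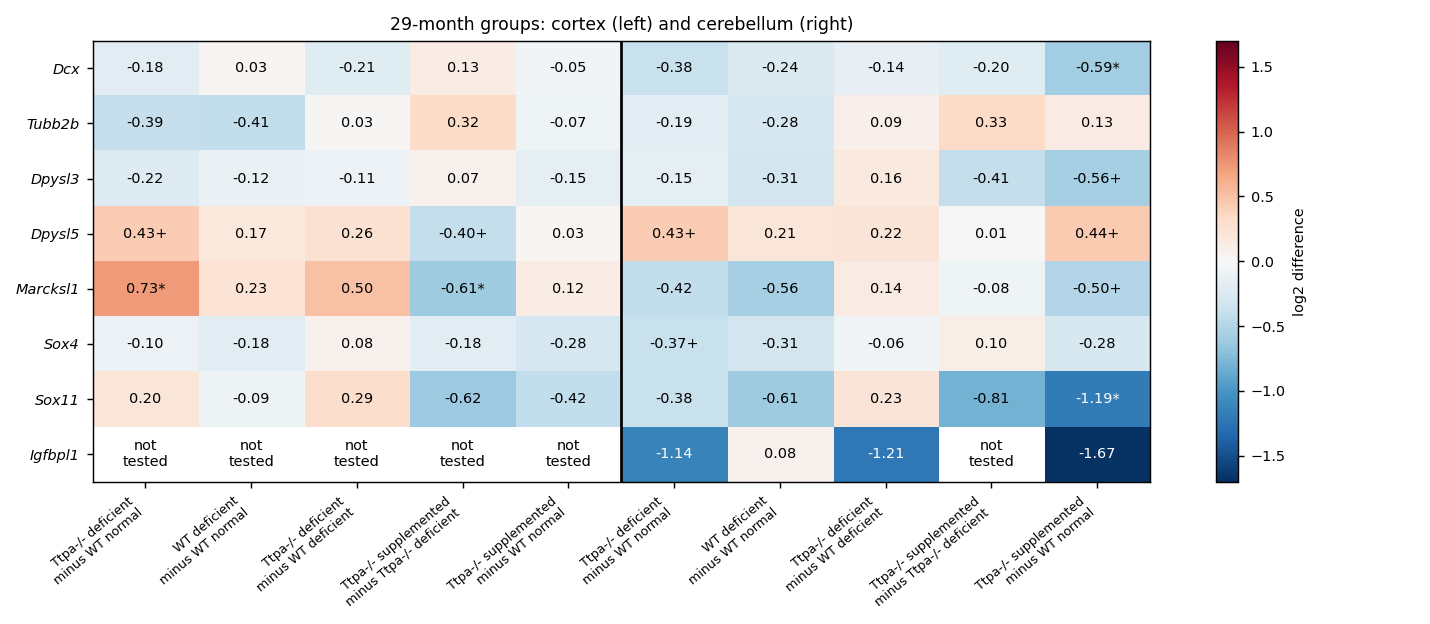
Log2 differences between 29-month groups for the brightest probe of 8 members, in 5 comparisons in the cortex (left) and the same 5 in the cerebellum (right). An asterisk marks a call and a plus sign an adjusted p under 0.05 with a fold change under 1.5. Uncoloured cells, labelled as such, were not tested. Marcksl1 is marked in the cortex for both comparisons that involve the deficient diet in Ttpa-/- mice and normal or supplemented feeding, and Sox11 (-1.19) and Dcx (-0.59) in the last column.

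Draxin and Top2a were not tested in any comparison. Both Draxin probes (chr4:147476483-147476542 and chr4:147475543-147475602, mm9) were below the background threshold on all 40 arrays, which does not show that the gene was silent. Top2a was above background on 4 arrays, 2 of aged wild-type cortex (-2.87 and -3.57), 1 of Ttpa-/- cortex on the supplemented diet (-2.57) and 1 of wild-type cerebellum on the deficient diet (-2.14). The other 3 arrays of that cerebellum group were at or below -5.25. Mki67, another gene of dividing cells, was at -3.32, -4.06, -3.15 and -3.26 on those 4 arrays, within the range of the other arrays of each group. Of 26 other proliferation genes, 12 were above background on all arrays and 3 on none. On the 4 arrays with Top2a signal, 4, 5, 1 and 2 of these 12 were the highest of their group and 0, 2, 1 and 3 the lowest.

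The wider lists of neurogenesis genes are read against the share of all probes called, as given for each comparison above. With ageing in the cortex (2.09% of probes), 0 of 28 tested neural progenitor and neuroblast genes rose and 1 fell, the progenitor factor Neurog2 (-1.68, adjusted p = 0.00753), with a median of -0.07. The summed signal of all 30 genes of that list was 499 to 521 on the young and 443 to 496 on the aged arrays, without overlap. Those of the proliferation genes and of the members' families overlapped. Of 15 tested proliferation genes, 2 fell, the spindle protein Prc1 (-0.81) and the nucleotide reductase subunit Rrm2 (-0.72), with a median of -0.39. Of 17 genes of the members' families, 1 rose, the β-tubulin Tubb6 (0.65). In the ageing cerebellum (5.03% of probes) 2 of 23 progenitor and neuroblast genes rose, Cd24a (1.45) and Basp1 (0.998), and Nrep fell by 0.83, 1 of 16 proliferation genes rose, Bub1b (1.21), and 1 of 17 relatives fell, Dpysl4 (-0.91). Among markers of other cells there, 4 of 6 microglia markers rose (median 0.82), as did 3 of 4 blood markers, 3 of 8 choroid plexus markers fell, and at most 2 of each other list were called, with 0 of 5 endothelial and 0 of 8 cerebellum markers.

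In the Ttpa-/- cortex on the deficient diet (4.75% of probes), 2 of 27 progenitor and neuroblast genes rose, Nnat (0.84) and Sp9 (0.75), and 2 fell, Nrep (-0.85) and Prox1 (-0.61), which is also 1 of the dentate gyrus granule cell markers. Of the relatives, the netrin receptor Dcc fell by 1.43, and no other of the 17 was called. None of 15 proliferation genes was called. In the Ttpa-/- cerebellum on the deficient diet (4.46% of probes), 0 of 23 progenitor and neuroblast genes and 0 of 17 relatives were called, and 1 of 16 proliferation genes fell, Birc5 (-1.06). Between the young regions (38.4% of probes), 16 of 29 progenitor and neuroblast genes were higher in the cortex and 6 lower (median 1.01), led by the interneuron factors Dlx2 (6.74) and Dlx1 (5.92), and in the other direction by Calb2 (-5.44) and Eomes (-4.76), both expressed by unipolar brush cells of the cerebellum.

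Across the 40 arrays, with each group's mean removed, Sox11 varied with Dpysl3 (Pearson r = 0.80), Sox4 (0.64), Igfbpl1 (0.60) and Dcx (0.53), while Sox11 and Dpysl5 gave -0.10. Of the 40 arrays, 22 had Igfbpl1 above background. These are descriptions over arrays that share groups and slides, and the young cerebellum arrays contribute to them, since array 1 was the lowest of its group for Dcx, Sox4, Sox11, Dpysl3 and Marcksl1. Removing the mean of each region from the 10 group means, the genes whose pattern came closest to that of Dcx, of 4633 probes ranked, were Rgs4 (r = 0.96), Myh7 (0.95), Kif5a (0.92), Phactr1 (0.92) and Klhl1 (0.91). Rgs4, a regulator of G protein signalling, had cortex means of 4.5 in young and 3.76 in aged wild-type mice with normal feeding and 3.33 to 3.56 in the other aged groups. In the cerebellum it went from -0.20 in normally fed aged wild-type mice to -1.45 in Ttpa-/- mice on the supplemented diet, the groups with the highest and the lowest Dcx mean there.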

How the data were processed

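RNA was measured on 40 Agilent 1-colour arrays, 4 in each of 10 groups taken from the labels. The authors deposited spot intensities per array, from which Feature Extraction 10.7.3.1, by the file headers, had removed background and spatial trends (the submitters' processing notes name 10.1.1.1) and which were not normalized between arrays. They also deposited log2 values, which were found to be log2 intensities relative to each array's 75th percentile with the probe's mean removed, within a median absolute difference of 0.000971. The study's methods state a global normalization and a fold change over 1.5 on log2 data in R. Flags of the scanner's table, which mark outlying and well measured spots, were used as deposited.

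Of 62976 spots per array, 59305 measured genes. Repeated spots of a probe were averaged after flagged outliers were left out, which left 55589 probes. The 75th percentile signal was 365 to 925, and no value of a kept probe was saturated (0). With 4 arrays a group, their number limits precision. These relative log2 signals were computed anew and fitted with limma 3.58.1 in R 4.3.3, with a mean for each of the 10 groups and empirical Bayes moderation. Benjamini-Hochberg adjustment covered every probe that was well above background throughout 1 or more of the compared groups, and a call needed an adjusted p under 0.05 and a fold over 1.5. Where 1 group had 0 of 4 arrays above background, the fold is a lower bound. An exact two-sided permutation test of 4 against 4 arrays has 70 splits and cannot go below p = 0.0286, the value of every pair of groups that do not overlap. Where no share of all probes without overlap is given, a member's lack of overlap has no scale beside it. The labels do not say whether the regions come from the same mice, and the p-values measure the spread between the arrays. The model was tested on simulated data.

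The members, the lists of other genes and the tests were chosen with earlier results of these data known. The text names all 10 members, from each list in the ageing comparisons and in Ttpa-/- mice on the deficient diet up to 4 called genes with the largest change in each direction, and the 5 genes most like Dcx. List genes named for the comparison of the regions were chosen after their values were seen. Of 21056 transcript identifiers on the arrays, 20626 matched the RefSeq table, which gave Draxin its probes. The genes of the lists were not all reported singly. Alternatives were normexp background correction (offset 50), median and quantile scaling, the authors' log2 values, testing dim probes too, a replicate block, a fit of the compared arrays alone, array weights, the mean of a gene's probes, the methods' t-test and leaving out each array. Leaving out 4 arrays that stood apart in choroid plexus markers was added after seeing the data. The slide as a block could not be fitted, since each group lies on 1 slide. Figures were drawn with matplotlib 3.10.9 in Python 3.11.15.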

Additional observations from a re-analysis of the deposited data

Results flagged for a closer look

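For each member the 4 arrays of each of the 10 groups were examined for an array whose gap to its nearest neighbour relative to the group's range exceeded Dixon's 95% critical value, and 5 of 100 groups had one, where chance gives about 1 in 20. Dcx was at -2.35 on array 3 of the aged wild-type cerebellum on the normal diet, above the others, which were at -2.87 to -2.81. Marcksl1 was at -0.06 on array 1 of the young wild-type cerebellum, below the others at 0.69 to 0.84, on the array with the choroid plexus signal. Tubb2b was at 4.95 on array 4 of the wild-type cortex on the deficient diet, with the others at 4.23 to 4.33, and at 4.52 on array 2 of the Ttpa-/- cerebellum on the deficient diet, with the others at 4.01 to 4.07. Top2a was at -5.67 on array 3 of the wild-type cortex on the deficient diet, where no array of the group was above background.

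The effects of a pair of members differed between the regions by the test of the difference. The change of Sox4 with age differed by -0.89 (cortex minus cerebellum), and that of Marcksl1 in Ttpa-/- mice on the deficient diet by 1.15. In both cases the groups lie on several slides.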

How the results depend on the processing

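The calls of Dcx, Dpysl3, Marcksl1 and Sox11 between the regions, young and aged, and of Marcksl1 in the Ttpa-/- cortex on the deficient diet kept their direction and passed the threshold under every alternative run. The count of members called was 1 in the ageing cortex with array weights (Marcksl1 -0.59) and with the mean of a gene's probes (Sox4 -0.66), 2 in the Ttpa-/- cortex on the deficient diet with no filter (Draxin -0.67, on probes not above background), and with array weights 1 for the deficient diet in the wild-type cerebellum (Marcksl1 -0.61) and 1 for Ttpa-/- against wild type on the deficient diet in the cortex (Marcksl1 0.68). For the supplemented diet in the Ttpa-/- cortex it was 0 with normexp, with the compared arrays alone and with the adjusted t-test, and 2 with the unadjusted t-test, which also gave 1 in the cerebellum. For Ttpa-/- mice on the supplemented diet against wild type in the cerebellum it was 1 with normexp, median scaling, no filter, the compared arrays alone, the mean of probes and the adjusted t-test, Sox11 being the member called each time. The regional difference of the ageing effect gave 0 with median scaling and 2 with array weights (Igfbpl1 -3.00), and that of the Ttpa-/- effect 0 with median scaling, 2 with no filter (Draxin) and 2 with the mean of probes (Sox4 0.60). Dpysl5 between the young regions turned to -0.10 with the mean of probes. In an alternative chosen after seeing the data, leaving out the 4 arrays that stood apart in choroid plexus signal, it was 1 in the ageing cortex (Marcksl1 -0.70) and 1 in the ageing cerebellum (Marcksl1 -0.64). The causes were not tested. Left-out arrays gave 0 to 1 members in the ageing cortex and cerebellum, in the Ttpa-/- cerebellum on the deficient diet (Marcksl1 -0.59 without wild-type array 4), for the deficient diet in the wild-type cerebellum and for the supplemented diet in the Ttpa-/- cortex, 1 to 3 for the supplemented diet against wild type in the cerebellum, 5 to 6 between the aged regions and 1 to 2 for the regional difference of ageing, and other counts did not move. The count over all probes moved by over 1.5 times in 66 of 172 alternatives, for ageing in the cortex from 586 to between 245 and 900, and for the deficient diet in the wild-type cortex from 63 to between 0 and 883. Same-numbered arrays correlated at -0.45 to 0.66, in 0 of 14 comparisons all over 0.1. Such correlations cannot decide whether same-numbered arrays share a mouse, and the main fit did not pair the arrays. With the replicate block every member count was as without it (Marcksl1 in the Ttpa-/- cortex 0.73, adjusted p = 0.00793), and the all-probe count of the deficient diet in the wild-type cortex went from 63 to 30. The slide as a block was not run. Signal over background limits Igfbpl1, Top2a and Draxin. The Igfbpl1 call with array weights came from a test that it entered only through the aged cerebellum, where it was high.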
